A study of Mus musculus with 90 samples.

Results

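The genes described here are the cyclins, cyclin-dependent kinases (CDKs), CDK inhibitors and E2F genes: 43 genes taken by symbol from the 24422 genes in the deposited table, without regard to their values. Of these, 42 passed the filter on low counts, as did 16511 genes in all; Cdkn2d, with 1 count in the whole data set, did not. RNA was measured in single mouse oocytes and embryos, 1 library each, from reads at transcript 5′ ends that carry a molecular identifier, with spike-in RNA in each. WT oocytes at metaphase II (MII) were compared with oocytes of Plag1 knockout (KO) females, and WT 2-cell (2c) and 8-cell (8c) embryos with embryos labelled matPlag1KO. Plag1 encodes a transcription factor.

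All mice were of the CD-1 strain. KO females carry a lacZ reporter in place of the Plag1 reading frame in every cell, so the loss was not restricted to the oocyte. Donor females were superovulated and mated with WT males, and matPlag1KO embryos are therefore heterozygous and keep an intact paternal Plag1 allele. Oocytes were picked without mating 21 to 23 h after the ovulatory hormone, 2c embryos at 45 to 47 h and 8c embryos at 71 to 73 h after fertilization, after culture from the zygote. The groups held 16 WT and 14 KO oocytes, 11 WT and 11 matPlag1KO 2c embryos, and 15 WT and 11 matPlag1KO 8c embryos. Several embryos may come from 1 female, and the labels do not name the female, so the p-values measure the spread between these oocytes and embryos.

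Cyclins are unstable subunits that activate CDKs. D-type cyclins with Cdk4 and Cdk6, and E-type cyclins with Cdk2, drive cells through G1 into S phase by phosphorylating the pocket proteins Rb1, Rbl1 and Rbl2, which otherwise hold E2F transcription factors in check. A-type and B-type cyclins with Cdk1 drive S phase exit and mitosis, under the opposing control of Wee1 and Pkmyt1, which phosphorylate Cdk1, and of the Cdc25 phosphatases, which remove that phosphate. The MII oocyte is arrested in meiosis with high Cdk1 activity and no transcription, and its stored RNA is largely destroyed while the embryonic genome becomes active at the 2-cell stage.

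Short motifs were searched on both strands of the RefSeq promoter windows of the mouse genome (GRCm38.p6), each from 250 bases before to 50 after an annotated start. They were an E2F site (TTTCCCGC, TTTCGCGC, TTTGCCGC or TTTGGCGC), a CCAAT box (CCAAT), a cell cycle homology region or CHR (TTTGAA or TTCGAA) and the PLAG1 consensus. A window was found for 32 of the 43 genes, 41 windows in all. The E2F letters were in 10 of the 41 windows (24.4%) and in 2.26% of the 32851 windows of all genes. CCAAT was in 48.8% of the members' windows and 37.4% of all windows, the CHR letters in 24.4% and 19.2%, and the PLAG1 consensus in 31.7% and 19.2%. The members with E2F letters were Cdc25a, Cdk1, Cdk2, Cdkn2a, E2f2, E2f3, E2f7, Rbl1 and Tfdp1. These matches describe the letters, and no binding was measured. The 4 windows printed here belong to genes the results turn on: Ccne1, Cdk1 and E2f7, which rose after the oocyte stage, and Cdc25a, which was lower in matPlag1KO 2c embryos. Capitals mark E2F, CCAAT and CHR letters. Ccna2, Ccnd1, Ccnd2, Ccne2, Cdc25c, Cdk5, E2f4, E2f5, Pkmyt1, Rb1 and Wee1 had no window in the table used.
Ccne1, chr7:38107441-38107740, minus strand: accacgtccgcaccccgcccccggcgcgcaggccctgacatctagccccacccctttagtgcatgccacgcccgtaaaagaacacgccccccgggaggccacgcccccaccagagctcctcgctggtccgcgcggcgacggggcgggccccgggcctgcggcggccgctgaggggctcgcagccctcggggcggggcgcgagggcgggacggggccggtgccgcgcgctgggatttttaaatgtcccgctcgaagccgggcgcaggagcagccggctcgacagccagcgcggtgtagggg
Cdk1, chr10:69352863-69353162, minus strand: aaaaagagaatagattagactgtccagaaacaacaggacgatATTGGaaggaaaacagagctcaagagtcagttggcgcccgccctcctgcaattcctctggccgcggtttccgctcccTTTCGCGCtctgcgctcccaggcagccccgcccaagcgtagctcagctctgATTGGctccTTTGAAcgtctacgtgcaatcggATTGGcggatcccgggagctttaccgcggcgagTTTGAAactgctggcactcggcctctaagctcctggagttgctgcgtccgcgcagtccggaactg
E2f7, chr10:110745189-110745488, plus strand: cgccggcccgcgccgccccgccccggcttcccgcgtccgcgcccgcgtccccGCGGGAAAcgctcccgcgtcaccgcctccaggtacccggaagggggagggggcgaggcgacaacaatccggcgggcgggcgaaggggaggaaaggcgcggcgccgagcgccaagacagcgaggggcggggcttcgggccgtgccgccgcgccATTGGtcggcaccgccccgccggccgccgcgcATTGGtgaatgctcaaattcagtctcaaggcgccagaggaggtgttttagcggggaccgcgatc
Cdc25a, chr9:109875329-109875628, plus strand: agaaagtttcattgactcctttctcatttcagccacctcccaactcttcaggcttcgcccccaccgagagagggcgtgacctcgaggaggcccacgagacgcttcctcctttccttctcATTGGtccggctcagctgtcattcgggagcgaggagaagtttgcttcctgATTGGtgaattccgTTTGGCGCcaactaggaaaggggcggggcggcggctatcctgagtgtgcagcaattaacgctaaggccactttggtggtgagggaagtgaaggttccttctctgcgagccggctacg
Cdk1 carried TTTCGCGC at -131 from the annotated start, 3 CCAAT boxes and 2 CHR matches. Cdc25a carried TTTGGCGC at -67 and 2 CCAAT boxes. E2f7 carried an E2F match on the reverse strand at -198 and 2 CCAAT boxes. Ccne1 had none of these letters and 2 matches of the PLAG1 consensus, which are not capitalised.

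Libraries were made in 2 pools, here plates A and B, each with oocytes and embryos of all groups. Kept libraries held 92475 to 2502421 gene counts and 6645 to 15428 spike-in counts. The group median was lowest at 2c, where WT embryos held 148473 and matPlag1KO embryos 163626 counts, and WT and KO oocytes held 395023 and 649899. Plag1 itself was seen in 16 of 16 WT and 3 of 14 KO oocytes (326 and 4 counts), in 1 of 11 WT and 9 of 11 matPlag1KO 2c embryos (1 and 91 counts), and in 5 of 15 and 4 of 11 8c embryos (10 and 6 counts). These reads lie at the 5′ end while the mutant allele replaces the reading frame, so they are no direct check of the deletion. The summed level of 11 oocyte genes had a median of 8133 CPM (counts scaled to an equal library total, with TMM factors) in WT oocytes and 20029 CPM in those of KO females. At 2c the medians were 4132 and 5745 CPM, and at 8c they were 130 and 189 CPM. For 9 genes of the 2-cell stage it ranged from 78.1 to 990 CPM in WT and from 241 to 1433 in matPlag1KO 2c embryos, with Zscan4f, Tcstv1 and Tcstv3 at 0 in both. For 9 genes of the 8-cell stage it ranged from 3235 to 7115 CPM in WT 2c embryos, with a median of 5014, and from 1467 to 6530 CPM in matPlag1KO 2c embryos, with a median of 2647. In WT and KO oocytes the medians of this sum were 6369 and 5448 CPM, and in WT and matPlag1KO 8c embryos 8377 and 7483 CPM. The sum was thus not low in oocytes and does not tell oocyte RNA from 8-cell RNA. Markers of cumulus cells reached at most 35.3 CPM and those of sperm at most 33.8 CPM in any 2c embryo, with Amh, Ptx3, Prm1 and Tnp2 at 0 there. The part of these markers in the results was not tested.

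Every one of the 43 genes had a count somewhere. In WT oocytes 18 of the genes were seen in every library, and in the other groups 16 to 24. Cdkn2d was not detected in any WT library. No count was found for Ccnd2, Ccna1, Cdkn2a and E2f3 in WT 2c embryos, nor for Ccng2 in 8c embryos of either genotype. Libraries were primed with oligo(dT), so counts cover RNA with a poly(A) tail. A change of the tail and a change of RNA amount cannot be told apart here. Counts per 1000 spike-in counts follow such RNA per oocyte or embryo. On this scale the highest WT stage was MII for 21 members, 2c for 6 (Ccnd1, Ccna2, Cdkn2c, Cdc25c, Wee1 and Rb1) and 8c for 15. On the CPM scale, which follows the share of all such RNA, the same counts were 12, 19 and 11. In the KO series they were 23, 9 and 11 per spike-in and 9, 23 and 11 in CPM. Values are per oocyte or whole embryo, so how many of its cells held a transcript and how much each held cannot be told apart.

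**Figure D1:**
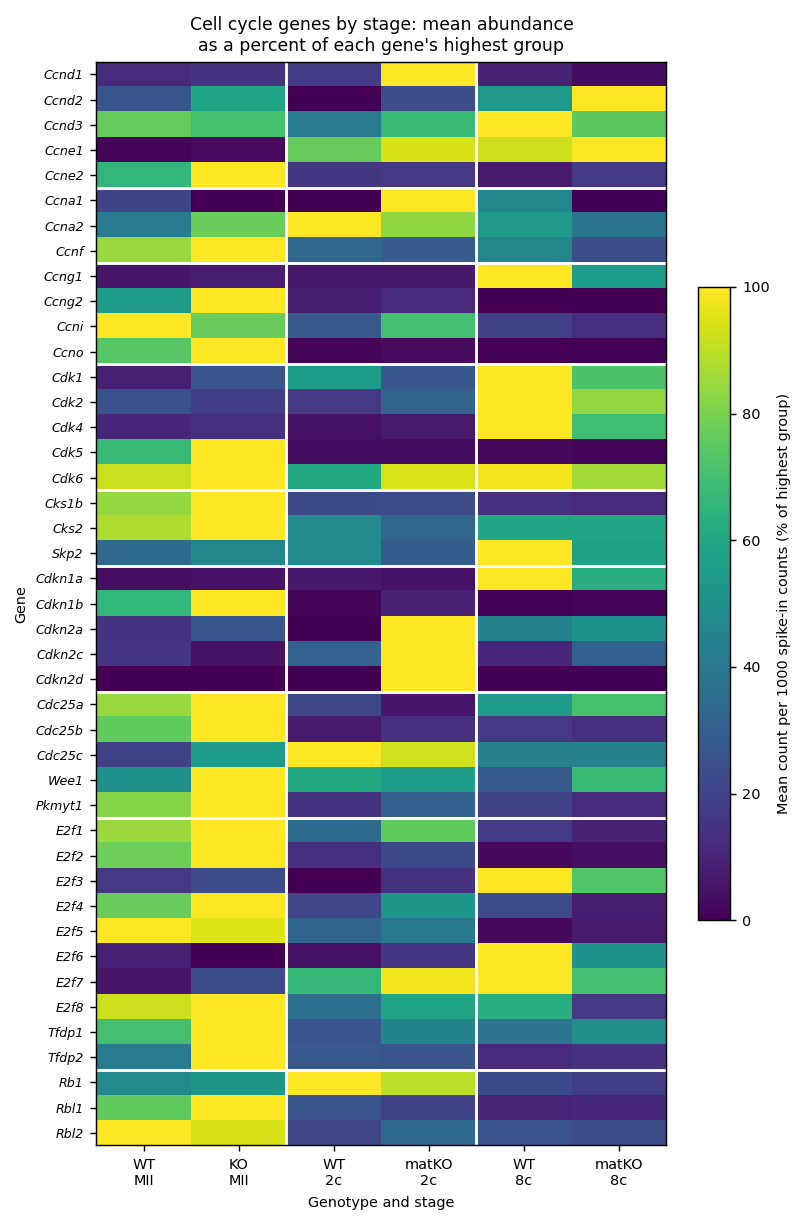
Mean abundance of the 43 genes (rows, grouped by role) in the 6 groups (columns), as a percent of each gene's highest group mean in counts per 1000 spike-in counts. Many rows are brightest in the oocyte columns, while Ccne1, Cdk1, Cdk4, Cdkn1a and Ccng1 are brightest after them; rows with few counts, such as Cdkn2d with 1, show single molecules.

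From the WT oocyte to the WT 2c embryo, 6 members rose and 19 fell of 42 tested (edgeR quasi-likelihood test, Benjamini-Hochberg adjusted p under 0.05, spike-in scaling). Those that rose were the cyclins Ccne1 and Ccna2, the kinase Cdk1, its activating phosphatase Cdc25c, E2f7 and Rb1. Among all tested genes 65.4% were called, 14.1% higher and 51.3% lower, so the members' counts lay near the background of a general fall. The members' median log2 change was -1.13 and that of all genes -1.46. With the share of all counted RNA (TMM scaling) in place of spike-in RNA the median of all genes was -0.03, and 14 members rose and 6 fell (27.5% and 23.1% of all genes, 50.6% in all). Ccnd1, Ccng1, Cdk2, Skp2, Cdkn1a, Cdkn2c and Wee1 passed as higher on that scale and not per spike-in. Ccnf then passed the test in the other direction, higher by 1.04. The directions in this comparison are therefore those per spike-in unless stated.

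The G1/S cyclins divided. Ccne1, cyclin E1, which activates Cdk2, held 5 counts in 4 of 16 WT oocytes, with a highest value of 0.173 counts per 1000 spike-in. Its WT 2c embryos lay between 0.539 and 2.99, with a median of 1.08. All 11 WT 2c embryos were above all 16 oocytes. No other member had ranges that did not overlap, in either direction, as 6.60% of all genes did. The log2 change was 4.93 ± 0.577 (SE; 30.6-fold, adjusted p = 6.75e-12), and 6.39 with TMM scaling. Ccne2, cyclin E2, fell by 2.03 ± 0.461 (4.08-fold, adjusted p = 9.37e-05), from a median of 2.56 to 0.638 per 1000 spike-in, but the TMM change of -0.64 did not pass (adjusted p = 0.174). The D-type cyclins, which carry growth signals to Cdk4 and Cdk6, gave no call: Ccnd1 had a log2 change of 0.47 ± 0.723 and Ccnd3 of -0.87 ± 0.516. Ccnd2 held 2 counts in WT oocytes and 0 in WT 2c embryos.

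Cdk1, the mitotic kinase (mm9 chr10:68799383-68815660, minus strand), ranged from 0 to 11.6 per 1000 spike-in in WT oocytes, with a median of 0.380, and from 4.95 to 15.8 in WT 2c embryos, with a median of 10.7. The ranges overlapped, with 4 of the 11 embryos above every oocyte and all 11 above the oocyte median. Its log2 change was 2.63 ± 0.539 (6.2-fold, adjusted p = 1.72e-05). The 2 highest WT oocytes, at 159 and 146 CPM against at most 37.1 CPM in the other 14, both sat in the last well of a plate row, a feature noticed in the data; without the 4 oocytes in such wells the change was 3.96. Ccna2, cyclin A2, the partner of Cdk2 and Cdk1 in S phase and G2, rose by 1.25 ± 0.404 (2.37-fold, adjusted p = 0.00535), from a median of 1.45 to 3.11. On plate A alone it changed by 0.43 and did not pass (adjusted p = 0.555), and on plate B by 1.68.

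Cdc25c, a phosphatase that activates Cdk1 at entry into mitosis, rose from a median of 0.209 per 1000 spike-in in WT oocytes (range 0 to 1.30) to 1.64 (range 0.717 to 3.83), a log2 change of 2.31 ± 0.468 (4.97-fold, adjusted p = 1.4e-05). Both other phosphatases fell. Cdc25b, needed for the resumption of meiosis in the oocyte, fell by 3.34 ± 0.544 (10.2-fold, adjusted p = 1.47e-07), from a median of 2.32 to 0.365, and Cdc25a by 1.95 ± 0.519. Of the kinases that oppose them, Pkmyt1 fell by 2.42 ± 0.576, and Wee1 had a change of 0.25 ± 0.602 that did not pass. Within this pathway step, then, all 3 phosphatases and 1 of the 2 kinases passed the test, not all in 1 direction. With TMM scaling Cdc25c and Cdc25b kept their calls, while Cdc25a and Pkmyt1 did not pass.

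The largest falls were elsewhere. Ccno, cyclin O, known for its part in multiciliated cells and needed for the oocyte's meiotic resumption, held 8388 counts in WT oocytes and 83 in WT 2c embryos. Its oocytes spread from 0.849 to 389 per 1000 spike-in with a median of 4.71, and 2c embryos from 0.323 to 1.56, and the groups overlapped at the lower end. Its log2 change was -5.87 ± 0.769 (58.3-fold, adjusted p = 3.47e-10). The 2 plates differed here: WT oocytes averaged 770 CPM on plate A and 75.7 CPM on plate B, and the change was -6.88 on plate A alone and -1.89 on plate B alone, past the test on both. KO oocytes averaged 664 and 718 CPM on the plates. The part of the plate in the result was not tested further.

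Cdkn1b, the inhibitor p27, which blocks Cdk2 complexes, was seen in all 16 WT oocytes (0.106 to 4.89 per 1000 spike-in, median 1.53) and in 3 of 11 WT 2c embryos, the highest at 0.303. It fell by 4.96 ± 0.699 (31.1-fold, adjusted p = 3.1e-09). Cdk5, a kinase best known in neurons and activated by partners other than cyclins, fell by 4.28 ± 0.786 (19.5-fold, adjusted p = 2.12e-06), from a median of 1.42 to 0.120; on plate B alone the change was -1.81 (adjusted p = 0.0522). Ccng2, cyclin G2, linked to cell cycle arrest, fell by 2.69 ± 0.527, from a median of 1.08 to 0.188. The spread between oocytes in these genes was wide, and in each all 11 embryos at 2c lay below the oocyte median.

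Among the E2F genes, the activators E2f1 and E2f2 fell (-1.26 ± 0.455 and -2.52 ± 0.559), as did E2f4 and E2f5, which act mainly as repressors with the pocket proteins (-1.84 ± 0.592 and -1.65 ± 0.462), and the dimer partner Tfdp1 (-1.38 ± 0.349). None of these 5 falls was called with TMM scaling. E2f7, an atypical repressor without a dimer partner, held 3 counts in WT oocytes and 22 in WT 2c embryos, a ratio per spike-in of 11.3 with a 95% counting interval of 3.40 to 59.1; the fitted change was 2.82 ± 0.755 (adjusted p = 0.000803). It did not pass on plate A alone. Of the pocket proteins Rb1 rose by 1.04 ± 0.476 (adjusted p = 0.0486), from a median of 0.398 to 1.20, while Rbl1 and Rbl2 fell by 1.51 and 1.84. Cks1b and Cks2, small subunits that bind CDKs, fell by 1.91 and 0.90, and Skp2, the F-box protein that with Cks1b marks p27 for destruction, had a change of 0.48 ± 0.386 that did not pass.

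**Figure D2:**
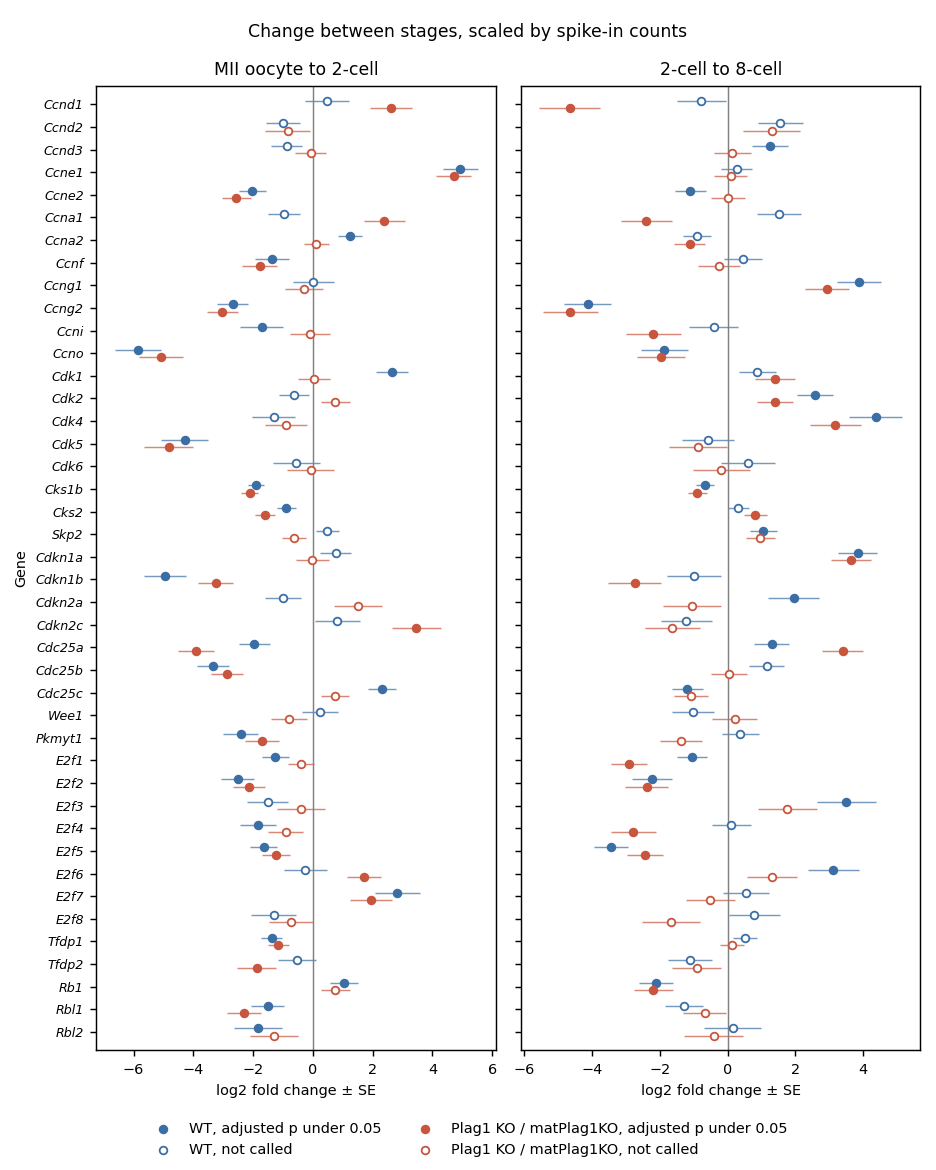
Log2 fold change ± SE of the 42 tested genes from MII to 2c (left) and from 2c to 8c (right), scaled by spike-in counts, with WT in blue and KO in red; filled points had an adjusted p under 0.05. Ccne1 lies far right and Ccno, Cdk5 and Cdkn1b far left in the left panel, and Cdk4, Ccng1 and Cdkn1a far right in the right panel.

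From the WT 2c to the WT 8c embryo, 10 members rose and 9 fell, beside 48.1% of all genes called, 31.9% higher and 16.2% lower. The members' median log2 change was 0.29 and that of all genes 0.53. With TMM scaling, under which the median of all genes was -0.12, 6 rose and 16 fell (21.0% and 28.9% of all genes, 49.9% in all). This comparison uses the same 2c embryos as the one before it, so a low or high 2c value enters both. Medians with members at their bounds where a group had no count were 0.13 here and -1.0 in the comparison before.

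Cdk4, the kinase of the D-type cyclins (mm9 chr10:126500659-126504338, plus strand), was at 0 to 0.940 per 1000 spike-in in WT 2c embryos with a median of 0.182, and at 2.74 to 9.30 with a median of 5.37 in WT 8c embryos. Cdkn1a, the inhibitor p21 that p53 induces, went from 0 to 1.92 with a median of 0.539 to 2.93 to 27.7 with a median of 6.81. Neither pair of ranges overlapped, as for 9.70% of all genes. Their log2 changes were 4.38 ± 0.780 (20.8-fold, adjusted p = 1.8e-06) for Cdk4 and 3.84 ± 0.568 (14.3-fold, adjusted p = 1.83e-08) for Cdkn1a, and both passed with TMM scaling, by 3.52 and 2.91.

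Ccng1, cyclin G1, like Cdkn1a a target of p53, rose by 3.89 ± 0.644 (14.8-fold, adjusted p = 3.45e-07), from a median of 0.120 (0 to 0.445) to 1.09 (0.286 to 7.51) per 1000 spike-in. Cdk2, the partner of cyclins E and A, rose by 2.59 ± 0.532 (6.02-fold, adjusted p = 2.92e-05), from a median of 1.03 (0.182 to 2.08) to 4.58 (1.44 to 21.6). Both pairs of ranges overlapped. Cdc25a, which activates Cdk2 and Cdk1 at S phase entry, rose by 1.31 ± 0.515 (adjusted p = 0.0293), from a median of 0.365 to 1.02, a call not made with TMM scaling. Cdk1 had a change of 0.88 ± 0.545 and Ccne1 of 0.27 ± 0.460, neither past the test. Other members called higher were Ccnd3 (1.25) and Skp2 (1.06), which lost the call with TMM scaling, and 3 genes with few counts. E2f3, an activator, held 23 counts at 8c and 0 at 2c, at least 4.64-fold higher. E2f6, a repressor that acts without the pocket proteins, held 32 counts against 1, a ratio of 19.4 with a 95% counting interval of 3.23 to 788. Cdkn2a, the locus of p16 and p19Arf, held 6 counts against 0, at least 1.21-fold higher, a call not made with TMM scaling.

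Among the falls, E2f5 went from a median of 1.31 (0.333 to 2.54) to 0.0953 (0 to 0.378) per 1000 spike-in, a log2 change of -3.44 ± 0.509 (10.9-fold, adjusted p = 1.89e-08). E2f2 fell by 2.23 ± 0.579 (4.69-fold, adjusted p = 0.000865), from a median of 0.719 (0.103 to 1.51) to 0.0853 (0 to 0.720). Rb1 fell by 2.12 ± 0.50 (4.35-fold, adjusted p = 0.000252), from 1.20 (0.202 to 2.08) to 0.254 (0 to 0.900). All of these ranges overlapped. Ccno fell by a further 1.86 ± 0.684 (3.63-fold, adjusted p = 0.0192), and on plate B alone the change was -1.57 and did not pass. Ccng2 went from 21 counts to 0 in 15 embryos, at least 11.6-fold lower. Rb1 and Cdc25c were higher at 2c than at either other WT stage in both comparisons, which share the 2c embryos. The remaining falls were in Cdc25c (-1.19), Ccne2 (-1.10), E2f1 (-1.05) and Cks1b (-0.67), and all 9 falls also passed with TMM scaling.

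**Figure D3:**
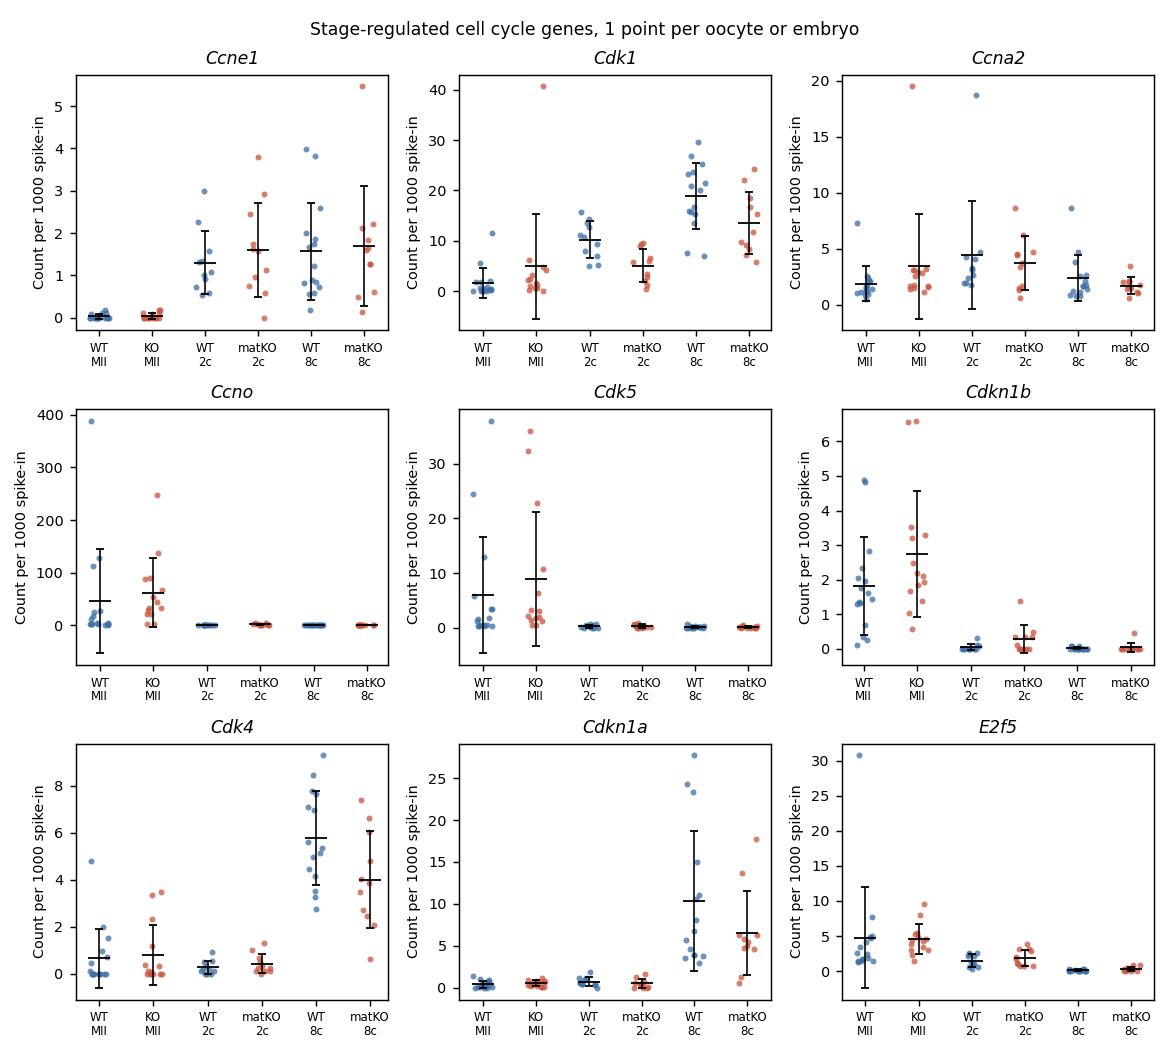
Counts per 1000 spike-in counts of 9 genes in each oocyte or embryo (points; WT blue, KO and matPlag1KO red), with the group mean (long bar) and SD (whiskers). Ccne1 is at most 0.193 in every oocyte, with group medians of 1.08 to 1.6 later, Cdk4 and Cdkn1a lie high in WT 8c embryos without overlap with 2c, and Ccno, Cdk5 and Cdkn1b lie low after the oocyte stage.

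The same changes were measured in the KO series. From KO oocytes to matPlag1KO 2c embryos 6 members rose and 16 fell (63.8% of all genes called, 13.5% higher and 50.3% lower; medians -0.77 for members and -1.42 for all). With TMM scaling 18 rose and 5 fell (29.1% and 19.3% of all genes, 48.4% in all). From matPlag1KO 2c to 8c, 7 rose and 13 fell (48.6% of all genes called, 29.1% higher and 19.5% lower; medians -0.59 and 0.30). With TMM scaling the counts were 4 and 20 (21.2% and 30.3% of all genes, 51.5% in all). Ccne1 rose by 4.71 ± 0.581 into 2c, beside 4.93 in WT. Ccno, Cdk5 and Cdkn1b fell by 5.09, 4.83 and 3.25. Cdk4 and Cdkn1a rose by 3.18 and 3.65 into 8c.

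Ranges did not overlap between KO oocytes and matPlag1KO 2c embryos for Ccng2, Cks1b, Cdc25a and Cdc25b (11.2% of all genes), all lower at 2c, nor between matPlag1KO 2c and 8c embryos for E2f1 (9.12%), lower at 8c. Members called in the KO series with no call in WT over the same interval included Ccnd1, which rose by 2.60 ± 0.704 into 2c and fell by 4.66 ± 0.905 into 8c, and E2f4, which fell by 2.79 ± 0.662 into 8c. Cdkn2c, the inhibitor p18, held 2 counts in KO oocytes and 32 in matPlag1KO 2c embryos, a ratio of 20.9 with a 95% counting interval of 5.34 to 180. In WT, TMM scaling did call Ccnd1, higher into 2c and lower into 8c, and Cdkn2c, higher into 2c. In the other direction, Cdk1 had a change of 0.04 ± 0.546 from KO oocytes to matPlag1KO 2c embryos, and Cdc25c of 0.74 ± 0.467, while both were called in WT. With TMM scaling both passed as higher in the KO series too, by 1.85 and 2.58. Whether a stage change differed between the genotypes is a separate test, given further on.

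The genotypes were compared at each stage with TMM scaling, in CPM. In MII oocytes no member passed the test, beside 0.781% of all genes (0.309% higher and 0.472% lower). With spike-in scaling the count was also 0, beside 0.83% (0.587% and 0.242%). There 5 members and 2044 of all 16511 genes had an unadjusted p under 0.05. With TMM, at an unadjusted p under 0.05 there were 2 members, Cdk1 (log2 difference 1.26 ± 0.459, p = 0.00709, adjusted p = 0.218) and Cdc25c (1.03 ± 0.382, adjusted p = 0.238), beside 10.2% of all genes. DESeq2 also called 0 members. Cdk1 ranged from 0 to 159 CPM in WT oocytes with a median of 9.47, and from 2.12 to 585 CPM in KO oocytes with a median of 23.6, and the ranges overlapped. The members' median difference was 0.07 and that of all genes 0.

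**Figure D4:**
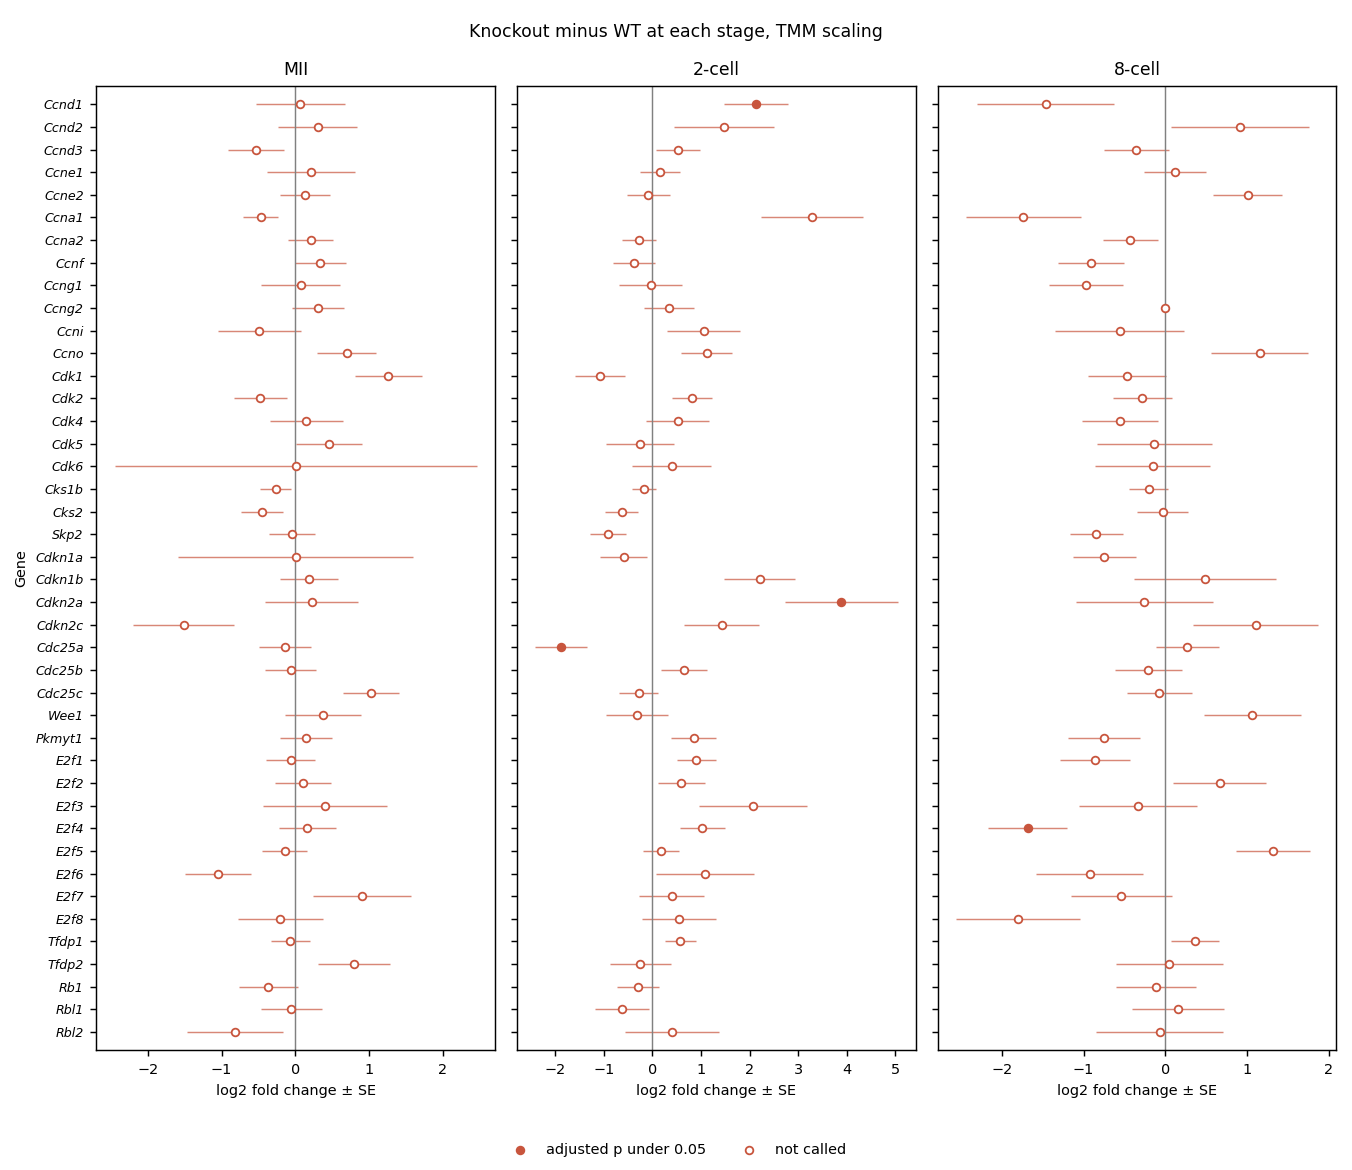
Log2 difference, KO minus WT with TMM scaling, ± SE, of the 42 tested genes in MII oocytes, 2c and 8c embryos; filled points had an adjusted p under 0.05. The 4 filled points are Ccnd1, Cdkn2a and Cdc25a at 2c and E2f4 at 8c; the SE is derived from the test statistic and is unstable where the difference is near 0, as for Cdk6 at MII.

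At the 2c stage 3 of 42 members were called, Ccnd1 and Cdkn2a higher and Cdc25a lower in matPlag1KO embryos, beside 4.92% of all genes (2.30% higher and 2.62% lower). With spike-in scaling no member was called, beside 1.73% of all genes (1.16% higher and 0.569% lower). An unadjusted p under 0.05 was reached by 8 members with spike-in scaling and 10 with TMM, beside 3054 and 3380 of all 16511 genes. Of the marker genes tested in the same fit, 0 of 9 of the 8-cell list and 1 of 6 of the 2-cell list passed, though the summed levels of both lists differed in median between these groups as given above. Their part was not tested. The members' median difference was 0.39 and that of all genes 0.12. Among the CDK inhibitors that were not called, Cdkn1b and Cdkn2c had differences of 2.21 ± 0.729 and 1.43 ± 0.770 (adjusted p = 0.0578 and 0.278), and Cdkn1a of -0.59 ± 0.493.

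Cdc25a (mm9 chr9:109778083-109796394, plus strand) was seen in all 11 WT 2c embryos, at 4.56, 22.3 and 44.8 CPM at the lowest, median and highest, and in 5 of 11 matPlag1KO embryos, with a median of 0 and a highest value of 24.7 CPM. The groups held 50 and 16 counts. In all, 7 matPlag1KO embryos lay below every WT embryo, and 1 lay above the WT median. The log2 difference was -1.88 ± 0.538 (3.67-fold lower, edgeR adjusted p = 0.0277). Within plates it was -2.25 on plate A, where 0 of 15073 genes passed, and -1.70 on plate B, neither past the test alone. With every library of at least 1000 counts kept it was -1.29 (adjusted p = 0.118).

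Ccnd1, cyclin D1 (mm9 chr7:152115836-152125830, minus strand), ranged from 0 through a median of 8.63 to 56.6 CPM in WT 2c embryos and from 0 through 32.3 to 282 CPM in matPlag1KO embryos. The groups overlapped, with 3 matPlag1KO embryos above every WT embryo and 8 of 11 above the WT median. The log2 difference was 2.13 ± 0.654 (4.38-fold higher, adjusted p = 0.0411). The highest matPlag1KO embryo held 80 of the group's 154 counts, and without it the difference was 1.33 (adjusted p = 0.260). It and the next highest, at 81.2 CPM, both sat in well D2 of their plate, a feature noticed in the data, and without both the difference was 1.03 (adjusted p = 0.447). Cdkn2a (mm9 chr4:88920377-88940523, minus strand) held 10 counts in 3 matPlag1KO embryos and 0 in WT, at least 2.85-fold higher (adjusted p = 0.0351). The same embryo of plate B held 8 of the 10 counts, and without it the call was lost (adjusted p = 0.354). The deposited count per gene does not tell which of the transcripts of Cdkn2a was read.

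Several 2c differences of neighbours in the pathway did not pass. Cdk1 was at 282, 538 and 799 CPM in WT and at 31.9, 226 and 585 CPM in matPlag1KO 2c embryos (lowest, median and highest), and 8 of the 11 matPlag1KO embryos lay below every WT embryo. The log2 difference of -1.08 ± 0.519 had an adjusted p of 0.212. Ccna2, at medians of 158 and 163 CPM, had a difference of -0.27 ± 0.348. Ccne1, at medians of 62.4 and 64.7 CPM, had one of 0.15 ± 0.413. E2f1 was at medians of 67.0 and 120 CPM, with a difference of 0.91 ± 0.398 (adjusted p = 0.169). Ccna1, cyclin A1, a germline cyclin, held 6 counts in 4 matPlag1KO embryos and 0 in WT (adjusted p = 0.0806).

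In 8c embryos 1 member was called beside 1.74% of all genes (1.21% higher and 0.527% lower). E2f4 (mm9 chr8:107821563-107829270, plus strand) was at 4.20, 52.0 and 107 CPM in WT 8c embryos and at 0, 8.61 and 49.6 CPM in matPlag1KO embryos (lowest, median and highest). The groups overlapped, yet all 11 matPlag1KO embryos lay below the WT median. The log2 difference was -1.69 ± 0.481 (3.22-fold lower, adjusted p = 0.0450). On plates A and B alone it was -1.78 and -1.60, neither past the test, beside 2 of 15073 and 8 of 15161 genes called lower. With spike-in scaling it was -1.59 (adjusted p = 0.243). No member was then called, beside 0.642% of all genes (0.551% higher and 0.0908% lower). In that fit 4 members and 1858 of all 16511 genes reached an unadjusted p under 0.05. E2f5, a relative of E2f4, had a difference of 1.32 ± 0.458 in the other direction (adjusted p = 0.120), with medians of 2.60 CPM in WT and 8.05 CPM in matPlag1KO. The members' median difference was -0.20 and that of all genes 0. Cdc25a and Ccnd1, called at 2c, had 8c differences of 0.27 ± 0.384 and -1.47 ± 0.844, neither past the test.

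**Figure D5:**
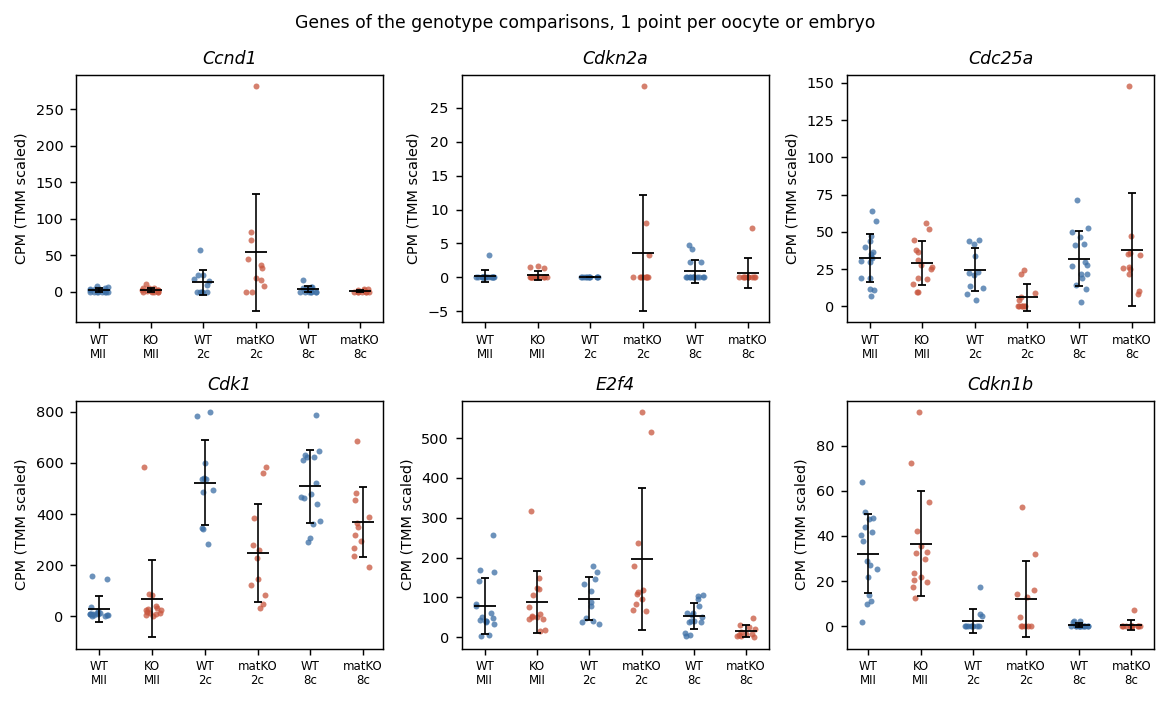
CPM (TMM-scaled) of 6 genes in each oocyte or embryo (points; WT blue, KO and matPlag1KO red), with the group mean (long bar) and SD (whiskers, which may pass below 0). The Ccnd1 and Cdkn2a means of matPlag1KO 2c embryos are pulled up by 1 embryo, at 282 and 28.2 CPM, while 6 of the 11 Cdc25a points there lie at 0.

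The difference between genotype differences was tested between 2c and MII and between 2c and 8c. Against MII, 1 member of 42 was called (3.31% of all genes, 1.62% higher and 1.68% lower): Cdk1, with -2.34 ± 0.694 (adjusted p = 0.0387). In CPM it went from medians of 9.47 in WT and 23.6 in KO oocytes to 538 and 226 at 2c. The value also says that its rise from oocyte to 2c was smaller in the KO series, and with spike-in scaling it was -2.60 (adjusted p = 0.0524), where 1.89% of all genes were called (0.672% and 1.22%). Without the 4 oocytes in the last well of a row it was -2.30 (adjusted p = 0.00481), and without both well D2 embryos -2.25 (adjusted p = 0.0806). Cdc25c and Cdc25a had values of -1.31 ± 0.548 and -1.74 ± 0.641 that did not pass (adjusted p = 0.176 and 0.115).

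Against 8c, 1 member was called (2.30% of all genes, 1.17% higher and 1.13% lower): E2f4, with 2.71 ± 0.668 (adjusted p = 0.0157). With spike-in scaling it was 2.90 (adjusted p = 0.0848), where 0.557% of all genes were called (0.369% and 0.188%). At 2c it ranged from 33.8 to 178 CPM in WT, with a median of 87.6, and from 66.9 to 565 CPM in matPlag1KO embryos, with a median of 115. The 2 highest of these, at 516 and 565 CPM, were again the well D2 embryos of the plates, and without them the value was 1.99 (adjusted p = 0.0957). Ccnd1 and Cdc25a were near the threshold, at 3.60 ± 1.08 and -2.14 ± 0.660 (adjusted p = 0.0517 and 0.0577). These tests use the same 2c embryos as the 2c comparison, so their calls are not separate evidence of it.

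Lists of other genes of the pathway were counted in the same fits, in which 51.3% of all genes fell and 14.1% rose from the WT oocyte to 2c, and 31.9% rose and 16.2% fell from 2c to 8c. Of the 13 genes of CDK activation and mitotic entry, 11 fell and 0 rose from the WT oocyte to 2c (median -2.19), and 6 rose and 0 fell from 2c to 8c (median 1.13). Ccnb1 and Ccnb2, the B-type cyclins of Cdk1, fell by 0.89 ± 0.332 and 3.35 ± 0.512 into 2c, and Ccnb2 rose by 2.09 ± 0.499 into 8c. Of the 15 genes of the SCF and APC/C ubiquitin ligases and the DREAM and MuvB complexes, 12 fell and 0 rose, then 6 rose and 1, Foxm1, fell. Of 22 known E2F targets of DNA replication, 16 fell and 0 rose (median -2.06), then 13 rose and 0 fell (median 1.20). Tyms, which makes thymidylate for DNA synthesis, rose by 4.40 ± 0.432 into 8c and had a change of 0.60 ± 0.371 into 2c.

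With TMM scaling the first list had 2 higher and 4 lower into 2c, the second 2 and 4, and the third 5 and 6. From 2c to 8c the TMM counts were 3 higher and 4 lower, 3 and 4, and 7 and 3. Between the genotypes, these lists gave 2 calls over the 3 stages with TMM scaling, beside 4.92% of all genes called at 2c and 1.74% at 8c, and 0 calls with spike-in scaling. Uhrf1, which directs maintenance DNA methylation, was higher in matPlag1KO 2c embryos by 1.32 ± 0.403 (adjusted p = 0.0389), and Aurka, a mitotic kinase, was lower in matPlag1KO 8c embryos by 1.41 ± 0.334 (log2 -1.41, adjusted p = 0.0115). No gene of the lists was called in an interaction.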

How the data were processed

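RNA of single oocytes and embryos was sequenced in 90 libraries, of which 78 were used. The authors aligned 5′-end reads to mm9 with TopHat, counted them per gene with HOMER and deposited raw read counts per gene together with those of 92 spike-in RNAs; the versions are not given in the sources used here. Groups were taken from the labels. A gene was tested where 5 or more kept libraries reached 1 CPM. A library was dropped, as 12 of 90 were, where its median CPM was under 1 over the genes that reached 1 CPM in 5 or more of all libraries. A single model of the 6 groups was fitted in edgeR 4.0.16 (R 4.3.3) with a mean per group, and p-values of the quasi-likelihood test were adjusted by Benjamini-Hochberg over 16511 genes at 0.05. Genotypes were compared with TMM factors and stages with the spike-in total as library size; CPM used TMM sizes. SE is the log2 fold change over the root of the test statistic. Pooled counts had 95% exact counting intervals, which cover counting error only, as does the floor of 3 counts per group behind each "at least". Pairs of libraries of a group differed by a chi-square per degree of freedom of 3.54 or more, so none was a duplicate of another in its group. Pairs across groups were not checked in this way. Plates A and B each held all stages and genotypes. DESeq2 1.42.0, other scalings, filters, plates and omissions were tried. The steps were tested on simulated data, with changes placed only in genes above a set mean count. That simulation held no plate, well or female effects and does not cover genes with few counts. Genes described one by one are those called between genotypes or in an interaction, and in each WT stage change the 5 largest rises and falls with at least 10 CPM in a group; other members are given with fewer values or by count. Genes of the pathway lists that are named were chosen after their values were seen. The members, lists and tests were chosen with earlier results of these data known.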

Additional observations from a re-analysis of the deposited data

Results flagged for a closer look

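The genotype difference of Cdk1 at 2c differed from that in MII oocytes by -2.34 on the log2 scale (edgeR quasi-likelihood interaction test, adjusted p = 0.0387; 8 of 11 matPlag1KO 2c embryos were below every WT 2c embryo). It was marked because the difference between stages itself passed a test. Its values over the alternatives were -2.60 to -2.20, with adjusted p from 0.00481 to 0.0806.

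For E2f4 the difference at 2c exceeded that at 8c by 2.71 (adjusted p = 0.0157), marked for the same reason. At 8c, 11 of 11 matPlag1KO embryos were below the WT median, and at 2c 8 of 11 were above it. Over the alternatives the value was 1.99 to 2.94, with adjusted p from 0.00271 to 0.0957.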

How the results depend on the processing

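None of the results chosen by the rule given above for genes described one by one reversed. Over 197 combinations of such a result and an alternative (omissions of single embryos aside), 165 kept their call, 32 lost it and 0 changed sign. The lost calls were 25 of 47 for genotype differences and interactions and 7 of 150 for stage changes. Outside that set, Ccnf was called lower from WT MII to 2c with spike-in scaling and higher with TMM scaling. The alternatives "without both well D2 embryos" and "without last-well oocytes" were chosen after seeing the data. The median log2 change of all genes shifted from -1.46 (spike-in) to -0.03 (TMM) for WT MII to 2c. With TMM the members higher and lower were 14 and 6 (WT MII to 2c), 6 and 16 (WT 2c to 8c), 18 and 5 (KO MII to 2c) and 4 and 20 (KO 2c to 8c). With spike-in scaling no member was called in any genotype comparison or interaction: 0 higher and 0 lower at 2c, 0 lower at 8c, 0 lower against MII and 0 higher against 8c. DESeq2 gave 1 higher at 8c, and 3 higher and 1 lower for 2c against 8c. Of all 16511 genes these were 266, and 360 and 294. Plate A alone gave 0 and 0 at 2c and 0 lower at 8c. Of all 15073 genes it called 0 and 0 at 2c and 2 lower at 8c. For stage changes it gave 3 higher (WT MII to 2c), 5 and 5 (WT 2c to 8c), 3 higher (KO MII to 2c), and 4 and 8 (KO 2c to 8c). Over all genes these were 1140, 2771 and 1255, 1298, and 2556 and 1750. Plate B alone gave 1 higher at MII (Ccno), 1 higher and 0 lower at 2c, and 0 lower at 8c. Of all 15161 genes it called 367 higher at MII, 150 and 352 at 2c, and 8 lower at 8c. For stage changes it gave 7 lower (WT MII to 2c), 6 and 4 (WT 2c to 8c), and 7 lower (KO 2c to 8c). Over all genes these were 4543, 4221 and 2010, and 1932. Other alternatives gave at 2c 1 higher without the filter and with only the 2 groups compared, and 0 lower with all libraries of at least 1000 counts. At 8c they gave 0 lower without the filter and with DESeq2 size factors. Over all genes these were 286 of 19613, 402 of 12823, 328 of 16578, 66 of 19613 and 57 of 16511. Without both well D2 embryos the counts were 0 higher at 2c, 0 lower against MII, and 0 higher and 1 lower (Cdc25a) against 8c. Of all 16404 genes these were 139, 144, and 100 and 107. Leaving out each of the 22 2c embryos in turn gave 0 to 3 members higher and 0 to 2 lower. Over all genes 202 to 502 were then higher and 241 to 625 lower. The log2 difference of Ccnd1 ran from 1.33 to 2.66 and lost the call in 12 of 22 omissions. That of Cdkn2a ran from 2.22 to 4.04 (3 of 22) and that of Cdc25a from -2.45 to -1.72 (3 of 22, adjusted p up to 0.0545). Genes with few counts are limited by depth.

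The labels name a well by its position on the plate and do not say what else libraries of the same well share. Over 14 wells that held an oocyte of each genotype, 12 pairs had a correlation of deviations over 0.1 and the lowest was -0.027, and 23 of 28 oocytes correlated best, among oocytes of the other genotype, with that of their own well, a hint from the data and not from the design. A replicate block on the well, fitted together with the plate for oocytes only, gave 2 of 35 members higher in KO oocytes, Ccno (1.24, adjusted p = 9.61e-14) and Cdk1 (0.92, adjusted p = 0.0118), beside 639 higher and 153 lower of 12978 genes. It was not run at 2c or 8c.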

Other observations

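Cdk1 in the 4 oocytes of the last well of a plate row, picked out after the values were seen, was at 159 and 146 CPM in WT and at 585 and 87.9 CPM in KO, while the other WT oocytes reached at most 37.1 and the other KO oocytes at most 81.1 CPM.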
